A study of Mus musculus with 4 samples.

Results

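Of 50067 kept nuclei of mouse inguinal white fat, 2600 (5.19%) met a rule that looks for contractile and myoepithelial transcripts, and these gated nuclei are described here. A nucleus met the rule when it held at least 1 UMI (a counted transcript molecule) of at least 3 of the 8 marker genes Smtn, Kcnq5, Acta2, Grik3, Fhod3, Myh11, Xkr4 and Cxcl14. It also had to show UMIs of fewer than 4 of the 9 adipocyte genes Gpam, Ghr, Plin1, Acaca, Adipoq, Fam13a, Cidec, Pde3b and Acsl1. The nuclei were thus selected on the UMIs of these 17 genes, and the levels of these genes are a description of the choice. Genes that share nuclei with the 8 markers were chosen with them, and each comparison of gated with other nuclei is therefore given without a test.

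The study profiled inguinal white adipose tissue, a subcutaneous depot at the groin, by single-nucleus RNA sequencing of 4 libraries from C57BL/6N mice aged 6 months. Of these, 2 are labelled wild type (WT1 and WT2) and 2 are labelled PTRF knockout (KO1 and KO2), with no treatment named for either group. Ptrf is an older name of Cavin1, the gene of the caveolar coat protein cavin-1, and the series title names fat mass and a distal enhancer of Ptrf as its subject. The labels do not say which cells carry the knockout or what was deleted. The titles number the mice of each library separately, so that p-values measure the spread between 2 numbered samples per label. Values for the 4 libraries are given throughout in the order WT1, WT2, KO1 and KO2.

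Myoepithelial cells form the outer, basal layer of the ducts and alveoli of the mammary gland, which in mice lies within the inguinal fat pad. They are epithelial cells with basal keratins and the transcription factor p63, they rest on the basement membrane, and they carry smooth muscle actin and myosin with which they contract under oxytocin to eject milk. Vascular smooth muscle cells and pericytes share much of this contractile apparatus but belong to the vessel wall and lack the keratins.

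The targeted gene went against the labels. In the gated nuclei, Cavin1 (chromosome 11, 100956733 to 100970887, minus strand, GRCm38) had 2, 1, 28 and 101 UMIs, or 1.24, 2.26, 52.6 and 50.6 normalised CPM (counts per 1000000 UMIs of a library's sum). It was thus nearly absent from the libraries labelled wild type and present in those labelled knockout, and the labels did not overlap. The names of the deposited matrices also carry the opposite genotype to the labels of their samples. Differences are therefore given between labels, as labelled knockout minus labelled wild type, and no direction is to be read as an effect of losing Cavin1.

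The deposited tables held 15928, 6827, 12454 and 16141 barcodes with 8855578 to 35134206 UMIs per library. After filtering, 15528, 6664, 11988 and 15887 nuclei were kept, of which 1181, 297, 381 and 741 were gated. The gated nuclei had median totals of 1172, 1278, 1108 and 2266 UMIs, against 1009, 919, 837 and 1366 in the other nuclei. The library labelled KO2 was thus the deepest and WT2 had the fewest gated nuclei, with a sum of 468249 UMIs against 2001058 in KO2. Among kept nuclei there were 510 repeat occurrences of a barcode across libraries, and 1 among the gated nuclei. A doublet caller marked 3 nuclei in all and has not worked here, so nuclei that hold 2 cell types may remain.

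Most gated nuclei fell into 1 cluster of an unsupervised grouping of all nuclei. The 10 leading genes of that cluster are the 8 markers of the rule with Gm30613 and Ctgf, so the grouping drew on the genes the rule used and its overlap with the rule is a description. Of 23 clusters, it held 2119 of the 2600 gated nuclei (81.5%), and 390 further nuclei of it did not meet the rule. By library these were 102, 40, 53 and 195 nuclei, with median totals of 809.5, 967.5, 830 and 3100 UMIs. Gated nuclei of the cluster had medians of 1143, 1300, 1114.5 and 2389 UMIs, so the nuclei left out were the deeper ones in KO2 alone. The rule took 91.1%, 85.7%, 85.1% and 73.4% of the cluster. By library the cluster held 88.0%, 80.5%, 79.3% and 72.7% of the gated nuclei. The other 481 gated nuclei were spread over 21 clusters. The largest numbers were 70 in the cluster led by Slc7a2 and the hormone receptor genes Prlr and Pgr of luminal epithelium, and 66 in the cluster led by the antibody genes Igha and Jchain.

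The number of markers in a nucleus moved with both the cluster and genes that the rule did not use. Nuclei with exactly 3 markers, just inside the rule, were 606, of which 42.7% lay in that cluster and 27.6% held a UMI of the basal genes Krt5, Krt14, Krt17, Trp63 or the oxytocin receptor gene Oxtr. Just outside, 2371 nuclei with 2 markers gave 6.24% and 11.1%. With 8 markers, 167 nuclei gave 97.6% and 82.0%. On the adipocyte side of the rule, 378 nuclei with 3 of the 9 adipocyte genes were inside and 186 nuclei with 4 were outside, of which 74.6% and 65.1% lay in the same cluster. More markers are found in deeper nuclei, and the median total was 966 UMIs with 3 markers and 2725 UMIs with 8 markers.

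**Figure D1:**
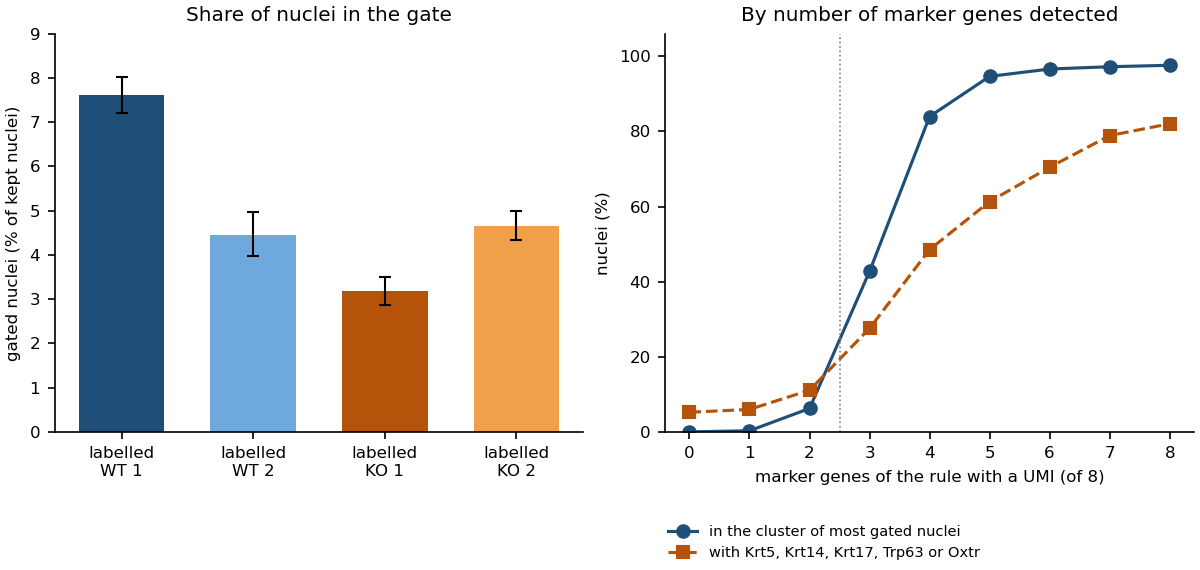
Left, gated nuclei as a percentage of kept nuclei in each library, with 95% Wilson intervals that cover counting error only. Right, the percentage of nuclei in the main cluster (circles) and with a UMI of a basal gene or Oxtr (squares) by the number of marker genes detected, for nuclei with fewer than 4 adipocyte genes. The dotted line marks the threshold of the rule, between 2 markers (6.24% in the cluster) and 3 markers (42.7%).

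Checked against marker lists, the gated nuclei showed myoepithelial genes. Of the 12 myoepithelial markers outside the rule, 11 had a higher CPM in gated than in other nuclei in each of the 4 libraries, where 22.0% of 10518 genes with at least 50 UMIs in gated nuclei did so. The exception was the keratin gene Krt15, with 3 UMIs in all gated nuclei. Of 12 markers of vascular smooth muscle outside the rule, 5 did so (Lmod1, Tagln, Cnn1, Ntrk3 and Cacna1c). Lower in each library were 3 of them (Notch3, Pln and Sorbs2), where 27.5% of the 10518 genes were. The 12 vascular smooth muscle markers summed to 2601, 2219, 2314 and 1977 CPM in gated nuclei against 891, 859, 993 and 633 CPM in other nuclei, so this list was higher in gated nuclei as well. Lmod1, Tagln and Cnn1 belong to the contractile apparatus that both cell types share, as do Tagln, Cnn1, Mylk and Actg2 of the myoepithelial list. Within the vascular smooth muscle list 2 genes were near 0. Des, the intermediate filament desmin, was at 4.08, 4.27, 3.60 and 1.5 CPM, and Pln, the calcium pump regulator phospholamban, was at 0 to 1.80 CPM. A level of 3 UMIs corresponds to 1.75, 6.41, 5.41 and 1.5 CPM in these sums. Of 11 pericyte markers 2 were higher in each library, the guanylate cyclase subunits Gucy1a1 and Gucy1b1, and 4 were lower. Rgs5, a pericyte marker, stood at 5.24, 8.54, 0 and 14.0 CPM in gated and at 6.32, 14.7, 20.6 and 8.23 CPM in other nuclei, higher in gated nuclei in KO2 and lower in the other 3 libraries. Of 16 luminal epithelial markers, 0 were higher in each of the 4 libraries and 4 were lower in each, where 22.0% and 27.5% of all genes were. Of 8 Schwann cell markers outside the rule, 3 were higher in each library and 2 were lower. They summed to 1811, 882, 847 and 1190 CPM in gated nuclei against 355, 351, 369 and 346 CPM in other nuclei. Xkr4, a gene of the rule, is also on the Schwann cell list.

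The 20 leading genes outside the rule, ranked by the mean log2 ratio of gated to other nuclei with 5 CPM added to both, joined muscle, basal and mammary genes. Gm30613, a long noncoding RNA, had the highest mean ratio (4.78 on the log2 scale), at 905, 3018, 1044 and 458 CPM against 24.4 to 62.9 CPM in other nuclei. It was highest in WT2 and lowest in KO2, and the labels overlapped. Ctgf, a matricellular protein gene and target of YAP, followed at 1148, 209, 1177 and 597 CPM against 5.64 to 31.1 CPM, and here WT2 was the lowest in both sets of nuclei. Cdh3, which encodes P-cadherin, an adhesion molecule of basal epithelium, was the most even of the leading genes named here, at 335, 346, 335 and 311 CPM against 13.5 to 24.6 CPM.

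Several leading genes encode receptors, ligands and other regulators. Lgr5, a receptor for R-spondins, stood at 274, 1002, 400 and 367 CPM in gated nuclei and at 19.6 to 43.8 CPM in other nuclei. The Notch ligand gene Dll1 stood at 158, 105, 82.9 and 113 CPM against 7.23 to 8.53 CPM. Carmn, a noncoding RNA of smooth muscle cells, had 1073, 498, 683 and 669 CPM against 34.7 to 168 CPM. Each of these 3 genes had non-overlapping values in gated and other nuclei, with the highest Lgr5 in WT2 and the highest Carmn and Dll1 in WT1. The remaining leading genes are Tpm2, Oxtr, Lmod1, Luzp2, Kctd4, Tagln, Synm, Postn, Cald1, Myl9, Prkg1, Adamts18, Trp63 and Col16a1.

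**Figure D2:**
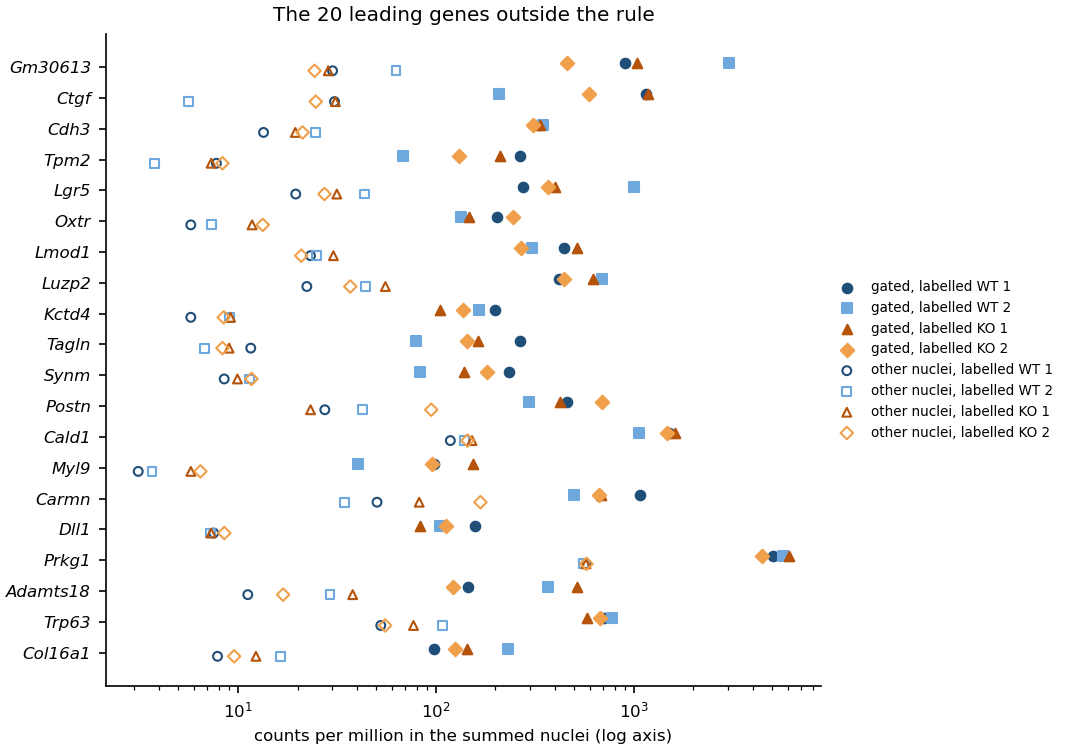
CPM in the summed gated nuclei (filled) and in all other kept nuclei (open) of each library, on a log axis, for the 20 leading genes outside the rule. In each gene the 4 filled points lie to the right of the 4 open points, by a mean log2 ratio of 3.18 to 4.78.

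The contractile apparatus was broadly present. Of its 18 genes outside the rule, 15 were higher in gated than in other nuclei in each library and 0 were lower in each, with a median log2 ratio of 2.32 against -0.04 over the 10518 genes. Tagln, the actin-bundling protein transgelin, had 267, 79.0, 164 and 144 CPM against 6.74 to 11.6 CPM in other nuclei. Mylk, the kinase that starts contraction by phosphorylating myosin light chain, was more even at 576, 495, 512 and 640 CPM against 48.7 to 74.2 CPM. Cald1, the actin-binding protein caldesmon, was at 1504, 1061, 1615 and 1476 CPM against 118 to 152 CPM. Among the genes not higher in each library were Des and Myocd, the gene of myocardin, a master coactivator of vascular smooth muscle genes. Myocd stood at 8.16, 6.41, 10.8 and 24.5 CPM in gated nuclei and at 8.32, 20.4, 22.0 and 11.2 CPM in other nuclei, so that it was higher in gated nuclei in KO2 alone. Srf, the gene of serum response factor, a transcription factor that acts on many contractile genes, was at 37.9, 27.8, 25.2 and 31.0 CPM against 10.8 to 15 CPM.

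Basal epithelial genes stood beside the muscle genes in the same sums. Of the 12 basal keratin and transcription factor genes, 9 were higher in gated nuclei in each library and 0 were lower in each. Trp63, which encodes p63, the transcription factor that maintains basal epithelium, was at 705, 773, 582 and 671 CPM against 52.7 to 108 CPM. Krt5, the basal keratin 5, was at 48.4, 29.9, 45.1 and 66.0 CPM against 0.613 to 4.02 CPM, and its partner Krt14 was at 38.5, 19.2, 10.8 and 44.0 CPM against 1.85 to 4.3 CPM. Snai2, a transcription factor of basal and mesenchymal states, had 60.6, 32.0, 52.3 and 59.0 CPM against 2.08 to 4.94 CPM. In each of these genes the lowest gated value lay above the highest value of the other nuclei. Krt15, Egr2 and Tcf7l2 were not higher in each library, and Tcf7l2 differed little, with 549 to 678 CPM in gated and 546 to 809 CPM in other nuclei.

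The share of nuclei with a UMI was compared at equal depth as well. Trp63 was detected in 39.4%, 50.5%, 37.0% and 47.6% of gated nuclei, and in 23.5%, 25.3%, 22.0% and 21.9% when each nucleus was thinned to 500 UMIs. In the cluster with the highest Prlr, a receptor gene of hormone-sensing luminal cells, thinned detection of Trp63 was 1.35%, 11.8%, 1.52% and 3.30%. That cluster had a median total of 2427 UMIs against 1348.5 UMIs for gated nuclei, and before thinning its shares were 4.95%, 26.4%, 8.75% and 10.3%. Epcam, an adhesion molecule of luminal epithelium, ran the other way, with 10.3%, 3.37%, 9.97% and 11.2% of gated nuclei and 43.4% to 64.5% of that cluster before thinning. After thinning, its shares were 3.39%, 0.673%, 4.46% and 3.78% of gated nuclei and 25.5%, 11.3%, 20.2% and 30.0% of that cluster. Among all other nuclei Epcam was detected in 11.4%, 5.39%, 7.98% and 9.33% before thinning, less often than in gated nuclei in KO1 and KO2 and more often in WT1 and WT2.

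Genes of the basement membrane and of the hemidesmosome, the junction that ties basal cells to it, were mostly higher. Of 24 genes, 19 were higher in gated nuclei in each library and 3 (Lamb1, Nid1 and Nid2) were lower in each. Lama1, a laminin chain, stood at 460, 103, 256 and 202 CPM against 17.7 to 28.4 CPM. Col17a1, the transmembrane collagen of the hemidesmosome, was at 164, 105, 142 and 155 CPM against 10.7 to 27.5 CPM. Dst, which encodes the linker dystonin that joins keratin filaments to that junction, was at 2993, 1834, 2084 and 2110 CPM against 612 to 987 CPM. Lama1 varied most between libraries among these 3 genes, with WT1 the highest and WT2 the lowest. Nid1, a linker of laminin and collagen made largely by stromal cells, had 29.1, 10.7, 19.8 and 82.0 CPM against 52.6 to 136 CPM.

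Of 24 genes of oxytocin, calcium and contraction signalling, 9 were higher in gated nuclei in each library and 5 were lower in each, shares of the list that lie closer to those of all genes (22.0% and 27.5%). Oxtr had 204, 135, 148 and 246 CPM against 5.78 to 13.3 CPM. It was detected in 19.6%, 14.8%, 15% and 33.6% of gated nuclei, and in 9.14%, 7.41%, 8.92% and 7.29% after thinning, where the cluster with the highest Prlr gave at most 0.760% in any library. The high share in KO2 before thinning went with the greater depth of that library, and after thinning KO2 had the lowest share. Prkg1, the kinase through which cyclic GMP acts in smooth muscle, was at 5077, 5674, 6056 and 4471 CPM against 554 to 577 CPM. Cacna1c, the pore of the L-type calcium channel, stood at 508, 863, 757 and 671 CPM against 86.6 to 174 CPM. The ryanodine receptor gene Ryr2, a calcium release channel of muscle, ran the other way at 23.9, 64.1, 27.0 and 35.0 CPM against 32.8 to 107 CPM.

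Channel and caveola genes had 1 member each that was higher in each library. Of 13 ion channel and glutamate receptor genes outside the rule, 1 was higher in each library, Kcnmb1, the smooth muscle subunit of the BK potassium channel, at 11.1, 4.27, 5.41 and 11.5 CPM against 1.37 to 3.31 CPM. That gene had 47 UMIs in all, and 8 genes of the list, among them Kcnq1, a relative of the marker Kcnq5, and Grik1 and Grik2, relatives of the marker Grik3, were lower in each library. Of 11 caveola genes, 1 was higher in each library, the membrane-bending protein gene Pacsin2, and 2 were lower, Cavin2 and Cavin4. Cav1, the main caveolar membrane protein, was at 213, 85.4, 99.1 and 242 CPM in gated nuclei against 157, 213, 152 and 498 CPM in other nuclei. Of 15 immediate early genes 4 were higher in each library (Fos, Jun, Junb and Egr1) and 1 was lower, where 22.0% and 27.5% of all genes were.

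Of 22 paracrine ligand and receptor genes outside the rule, 14 were higher in gated nuclei in each library and 3 were lower in each. Fgf1, a growth factor, was at 210, 303, 195 and 231 CPM against 29.1 to 45.8 CPM. Il17b, a cytokine gene, was at 44.9, 25.6, 28.8 and 32.5 CPM against 4.02 to 6.93 CPM. Lgr4, the relative of Lgr5, was at 612, 363, 469 and 426 CPM against 89.5 to 151 CPM. Values of these 3 genes did not overlap between gated and other nuclei. The receptor genes Notch1 and Notch3 were lower in each library, with Notch3, a receptor of the vessel wall and of luminal cells, at 33.8, 47.0, 68.5 and 43.5 CPM against 50.2 to 136 CPM.

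Against the epithelial clusters with the highest Prlr and the highest Kit, a marker of luminal progenitors, most contractile and myoepithelial genes were higher in the gated nuclei. In each library 16 of the 18 contractile genes, 8 of the 12 basal genes and 11 of the 12 myoepithelial markers were higher in gated nuclei than in both clusters, and 0 of the 16 luminal markers were, where 17.0% of the 10518 genes were. Markers of other cell types were above both clusters too, with 8 of 12 vascular smooth muscle, 6 of 12 fibroblast or progenitor, 4 of 8 vascular endothelial, 4 of 11 pericyte and 4 of 6 B cell markers. Myh11, a gene of the rule and the smooth muscle myosin heavy chain, was at 2386, 897, 1186 and 1795 CPM in gated nuclei against 4.83 to 112 CPM in these 2 clusters. In the cluster with the highest Rgs5, which is led by the endothelial genes Cyyr1 and Adgrl4 and so holds more than pericytes, Trp63 was at 7.69 to 52.1 CPM and Krt14 at 0 CPM in each library.

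The gated nuclei were then split by the 3 markers that point to myoepithelium, Xkr4, Cxcl14 and Grik3. At least 1 of the 3 was detected in 2375 nuclei (91.3%), by library 1106, 270, 326 and 673, and none was detected in 75, 27, 55 and 68 nuclei. The nuclei without these 3 genes were shallower, with a median of 999 UMIs against 1391. Of the 225, 144 lay in the main cluster. A UMI of a basal gene or Oxtr was found in 38.2% of them and in 58.4% of the nuclei with the 3 genes, against 7.81% of other nuclei.

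The nuclei without Xkr4, Cxcl14 and Grik3 held basal genes too. Trp63 stood at 1048, 586, 388 and 423 CPM in them, and at 689, 790, 609 and 691 CPM in those with the 3 genes. Oxtr had 65.5, 51.0, 44.8 and 75.0 CPM without and 211, 142, 162 and 259 CPM with the 3 genes, lower without them in each library. Pooled over the libraries, Krt5 stood at 18.2 CPM without (6 UMIs) and 56.2 CPM with the 3 genes. Krt14 stood at 30.4 and 36.0 CPM and Krt17 at 24.3 and 24.7 CPM. Rgs5 was at 26.2, 0, 0 and 81.8 CPM without the 3 genes, where 3 UMIs correspond to 39.3, 76.5, 44.8 and 20.5 CPM. The 11 pericyte markers summed to 328, 382, 209 and 757 CPM there, above the 146, 177, 182 and 238 CPM of all gated nuclei. Macrophage markers were above as well, at 354, 331, 149 and 450 CPM against 129, 122, 97.3 and 429 CPM. Vascular endothelial markers were above except in WT2, at 485, 153, 492 and 668 CPM against 192, 280, 258 and 276 CPM. The myoepithelial markers outside the rule were below in each library, at 2175, 1530, 1447 and 1145 CPM against 2301, 1809, 1864 and 2213 CPM. The 12 vascular smooth muscle markers outside the rule summed to 2319, 2141, 2372 and 2066 CPM, against 2601, 2219, 2314 and 1977 CPM in all gated nuclei. Whether these nuclei belong to the vessel wall was not tested. Summed levels of other cell types were uneven in this small set: 9 skeletal muscle genes reached 3163 CPM in KO1, led by Ttn at 1566 CPM, against 40.9 to 484 CPM in the other 3 libraries.

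The share of gated nuclei was 7.61%, 4.46%, 3.18% and 4.66% of kept nuclei, with Wilson 95% intervals of 7.20 to 8.03, 3.99 to 4.98, 2.88 to 3.51 and 4.35 to 5.00. WT1 had the highest share and KO1 the lowest, and WT2 lay below KO2, so the labels overlapped. Among nuclei of at least 1000 UMIs and 500 genes the shares were 9%, 6.81%, 5.03% and 6.22%, and the labels did not overlap (exact permutation p = 0.333). In all kept nuclei the mean was 6.03% ± 2.23 (SD, n = 2) in libraries labelled wild type and 3.92% ± 1.05 (SD, n = 2) in those labelled knockout. The difference of -2.11 points gave p = 0.667 in a two-sided exact permutation test, in which 2 against 2 libraries cannot go below 0.333. Without WT1 the difference was -0.536 points, without WT2 -3.68, without KO1 -1.37 and without KO2 -2.85. After thinning each nucleus to 500 UMIs the shares were 6.54%, 2.75%, 2.34% and 3.87%. Nuclei per tissue and recovery of nuclei cannot be told apart from these shares.

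Within the gate, the share of nuclei with Xkr4, Cxcl14 or Grik3 was 93.6%, 90.9%, 85.6% and 90.8%. WT2 and KO2 lay close to each other, KO1 was the lowest, and the labels did not overlap by a narrow margin. With at least 4 markers in the rule the shares were 97.9%, 96.5%, 90.8% and 96.6%, and KO2 lay above WT2, so that the labels overlapped (exact permutation p = 0.667). In the gate as defined, means were 92.3% ± 1.94 (SD, n = 2) and 88.2% ± 3.72 (SD, n = 2), a difference of -4.09 points, and the exact permutation p was 0.333, the smallest this design allows. Without WT1 the difference was -2.72 points, without WT2 -5.46, without KO1 -1.46 and without KO2 -6.71.

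Between labels, the summed gated nuclei differed in 1 of 11953 genes tested (0.00837%) at an adjusted p under 0.05 in edgeR's quasi-likelihood test, and 197 genes had an unadjusted p under 0.05. The gene was Gm47283, annotated as protein coding on chromosome Y at 90784738 to 90816464 on the plus strand (GRCm38). It had 70, 22, 1498 and 3234 UMIs, or 43.2, 49.7, 2812 and 1619 normalised CPM, with both libraries labelled knockout above both labelled wild type. The log2 difference was 5.59 (SE 0.40, edgeR adjusted p = 0.00347). With the replicate number as a block it was 5.56 and not called (edgeR adjusted p = 0.0906). The same gap stood in the other nuclei, at 42.5, 27.8, 2226 and 1456 CPM. Xist, the RNA of the inactive X chromosome, was at 546, 429, 472 and 654 CPM in gated nuclei, and the labels overlapped (log2 difference 0.15, SE 0.28). The sex of the mice and the origin of the Gm47283 reads were not tested.

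Cavin1 differed by 5.01 on the log2 scale (SE 0.65) and was not called in edgeR (adjusted p = 0.230), where the labelled wild type libraries hold 3 UMIs together. Pooled over the 2 libraries of a label, 129 against 3 UMIs gave a ratio of 36.8 with an exact 95% interval of 12.3 to 181 for counting error only. It was called by DESeq2 (log2 difference 5.09, adjusted p = 0.0066). Other nuclei showed the same pattern at 1.86, 0.981, 54.1 and 50.5 CPM. The 3 antisense genes Gm43391, Gm21847 and Speer4cos on chromosome 5 were lower in the labelled knockout libraries without being called by edgeR. Gm21847 (15516489 to 15656679, plus strand) had 325, 234, 32 and 66 UMIs and 189, 500, 57.7 and 33.0 CPM, with WT2 the highest and the labels apart (log2 difference -3.02, SE 0.53). Gm43391 (15464171 to 15478876, plus strand) had 65, 35, 1 and 4 UMIs (log2 difference -4.80, SE 0.67, edgeR adjusted p = 0.273). These antisense genes belong to a repeated family, and the sources used here do not say whether strand was used in counting, so their reads may be shared with neighbours. Igha, the constant region of IgA antibodies, had 5, 1, 11 and 174 UMIs or 2.91, 2.14, 19.8 and 87.0 CPM, with both labelled knockout libraries above both labelled wild type libraries and KO2 the highest. Its log2 difference was 4.26 (SE 0.83, not called by edgeR) and 2.82 without KO2. Other nuclei had the same order, at 2.99, 2.33, 73.1 and 439 CPM.

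The count of called genes moved with the libraries and the tool. It was 26 without WT1, 21 without WT2, 4 without KO1 and 4 without KO2, fits in which the lone library of a label is assumed to vary like the others. DESeq2 called 6 genes, Gm47283, Cavin1 and Igha higher and the 3 antisense genes lower. In the gated nuclei of the main cluster edgeR also called 6, Gm47283 and Cavin1 higher and Gm43391, Gm21847, Speer4cos and Fkbp5 lower.

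**Figure D3:**
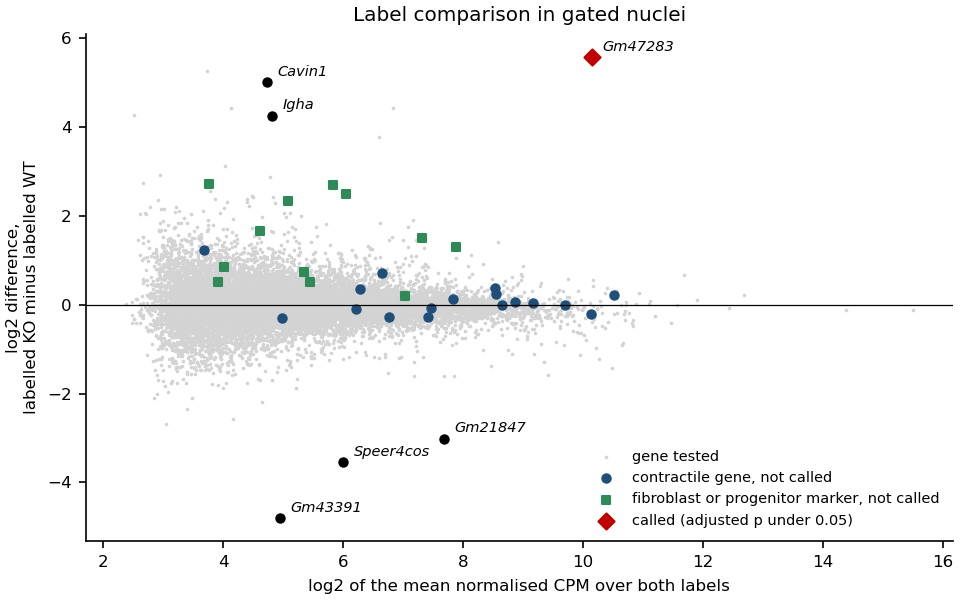
Log2 difference between labels in the summed gated nuclei against the log2 of the mean normalised CPM, for each gene tested by edgeR. Gm47283 (red diamond) was called, the contractile genes (blue) lie near 0 with a median of 0.05, and the 12 fibroblast markers (green) lie above 0 with a median of 1.40.

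On counts simulated with a common dispersion for all genes, edgeR recovered 0 of 44 2-fold and 19 of 49 4-fold changes. No gene of the 8 functional lists was called between labels by edgeR. Of their 125 genes tested, 4 had an unadjusted p under 0.05, where 196 of 11937 genes outside the rule did, and DESeq2 called 1, Cavin1. In 15 of the 125 both labelled knockout libraries lay above both labelled wild type libraries, and in 12 both lay below, where 14.2% and 12.9% of all genes did so. The median log2 difference of these genes was 0.01, against -0.01 over all genes tested. Of 17 contractile genes 10 were above 0 and 7 below (median 0.05), of 10 basal genes 4 and 6 (-0.11), and of 24 basement membrane genes 14 and 10 (0.03). Of 24 oxytocin and calcium genes 12 were above 0 and 12 below (-0.01), of 12 channel genes 6 and 6 (0.01), of 19 paracrine genes 11 and 8 (0.06), and of 8 caveola genes 4 and 4 (0.03).

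The genes of lowest unadjusted p in the lists besides Cavin1 were not called. Egr1, an immediate early transcription factor, was at 25.9, 49.7, 11.3 and 11.0 normalised CPM, with both labelled knockout libraries below both labelled wild type libraries (log2 difference -1.70, SE 0.57). Of the 11 immediate early genes tested, 4 were above 0 and 7 below, with a median of -0.24. Wnt5a, a secreted Wnt ligand, was at 29.0, 31.6, 71.3 and 52.6 normalised CPM, higher in both labelled knockout libraries (log2 difference 1.02, SE 0.38). Itga3, an integrin chain that binds laminin, was at 117, 99.4, 61.9 and 67.6 normalised CPM, lower in both (log2 difference -0.74, SE 0.30). Their edgeR adjusted p-values rounded to 1.

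In the contractile genes 1 library stood apart. WT2 was the lowest of the 4 libraries in 15 of the 17 contractile genes tested, where it was the lowest in 32.2% of all genes, and the exceptions were Lmod1 (lowest in KO2) and Srf (lowest in KO1). Tpm2, the beta chain of tropomyosin, was at 281, 72.3, 220 and 131 normalised CPM, with WT2 below the other 3 and the labels overlapping (log2 difference -0.08, SE 0.59). Myl9, the regulatory light chain of smooth muscle myosin, was at 103, 42.9, 160 and 96.1 normalised CPM (log2 difference 0.72, SE 0.44). Synpo2, an actin-associated protein gene, split the libraries across labels, with 646 and 657 normalised CPM in WT1 and KO2 and 271 and 300 in WT2 and KO1. In 2 of the 17, Actn1, the gene of alpha-actinin, and Myocd, the labels did not overlap, as in 27.1% of all genes, and in both the labelled knockout libraries were higher. WT2 was also the lowest in 8 of 11 myoepithelial and 12 of 15 luminal markers tested, and it had 58 gated nuclei (19.5%) outside the main cluster. The summed contractile level was 7622, 4517, 6730 and 6535 CPM in all gated nuclei and 8979, 5545, 8865 and 8427 CPM in those of the main cluster, lowest in WT2 in both.

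**Figure D4:**
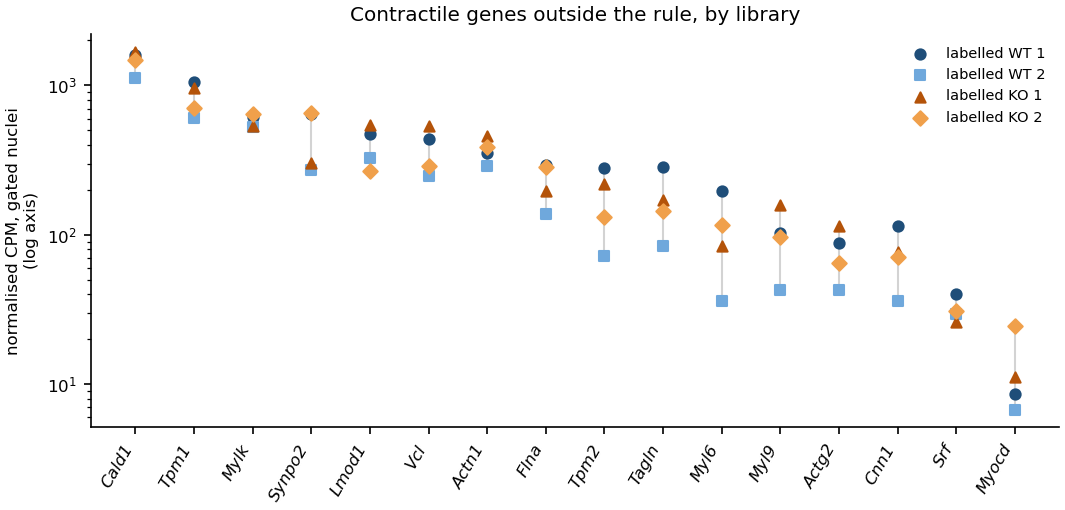
Normalised CPM of 16 of the 17 contractile genes tested outside the rule, in the summed gated nuclei of each library on a log axis, ordered by their mean. The square of WT2 is the lowest point of each gene shown except Lmod1 and Srf.

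Markers of other cell types moved with KO2. Each of the 12 fibroblast or progenitor markers tested was highest in KO2, and 12 of 12 were above 0 between labels with a median of 1.40 on the log2 scale, 7 with an unadjusted p under 0.05 and 0 called by edgeR or DESeq2. Over all genes outside the rule, 196 of 11937 had an unadjusted p under 0.05 in edgeR. In 6 of the 12 fibroblast or progenitor markers both labelled knockout libraries lay above both labelled wild type libraries, where 14.2% of all genes did so. The 12 markers summed to 511, 431, 570 and 1750 CPM in gated nuclei. It was 459, 358, 373 and 689 CPM in the gated nuclei of the main cluster and 708, 654, 1000.5 and 4430 CPM in those outside it, so that the excess of KO2 was larger outside the cluster. Collagen gene Col3a1 was at 14.6, 27.8, 28.8 and 190 CPM in gated nuclei and at 39.2, 104, 63.0 and 235 CPM in other nuclei. The summed B cell markers (303, 337, 296 and 1441 CPM), macrophage markers (129, 122, 97.3 and 429 CPM) and plasma cell markers (51.3, 64.1, 81.1 and 191 CPM) were highest in KO2 as well. KO2 was also the highest in the other nuclei for each of these lists. Fibroblast markers summed there to 1132, 1194, 917 and 2202 CPM, B cell markers to 1649, 1602, 1505 and 3401 CPM. Macrophage markers summed to 607, 488, 393 and 1026 CPM and plasma cell markers to 89.9, 53.0, 154 and 628 CPM. The part of these markers in the differences between labels was not tested.

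The 2 kinds of gated nuclei were also compared between labels. With Xkr4, Cxcl14 or Grik3, 1 of 11416 genes was called by edgeR (0.00876%), Gm47283 (log2 difference 5.58, SE 0.39, edgeR adjusted p = 0.0021). Of 123 genes of the functional lists tested there, 0 were called by edgeR and DESeq2 called 1. An unadjusted p under 0.05 was found in 3 of them, and in 163 of 11400 genes outside the rule. The count of called genes was 40 without WT1, 10 without WT2, 3 without KO1 and 2 without KO2. Without the 3 genes, 1 of 1660 genes was called (0.0602%), again Gm47283, at 3, 2, 222 and 200 UMIs (log2 difference 5.71, SE 0.71, edgeR adjusted p = 0.021). With the replicate block it was 5.73 there and not called (edgeR adjusted p = 0.998). Of 58 list genes tested there, 0 were called by edgeR and DESeq2 called 0. An unadjusted p under 0.05 was found in 3 of them, and in 64 of 1651 genes outside the rule. The count of called genes over all genes tested there varied with each library left out. Cavin1 had 0, 0, 5 and 13 UMIs in the nuclei without the 3 genes.

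A difference of the label effect between the 2 kinds was called in 1 of 7386 genes (0.0135%), Slc8a1, the sodium-calcium exchanger that removes calcium from muscle cells (chromosome 17, 81373105 to 81738377, minus strand, GRCm38). With Xkr4, Cxcl14 or Grik3 it was at 291, 441, 148 and 242 CPM, lower in both labelled knockout libraries (log2 difference -0.93, SE 0.33, not called). Without the 3 genes it was at 78.6, 102, 343 and 484 CPM, higher in both, from 6, 4, 23 and 71 UMIs (log2 difference 2.26, SE 0.54, not called). The difference of the 2 effects was -3.20 on the log2 scale (SE 0.59, edgeR adjusted p = 5.08e-04), where the median over all genes was -0.11. It was not called by DESeq2 (-3.18, adjusted p = 0.584), with at least 4 markers in the rule (-3.56, edgeR adjusted p = 1), without WT2 (-3.04, edgeR adjusted p = 0.121) or without KO2 (-3.30, edgeR adjusted p = 0.0613). In the nuclei without the 3 genes the luminal marker Epcam moved the same way, at 52.4, 51.0, 149 and 450 CPM from 4, 2, 10 and 66 UMIs (log2 difference 2.60, SE 0.73, not called). Of the 5 luminal markers tested in these nuclei, 2 were above 0 between labels and 3 below, with a median of -0.03. The 16 luminal markers summed to 1035, 3595, 2163 and 3600 CPM there, and their part in the Slc8a1 result was not tested.

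**Figure D5:**
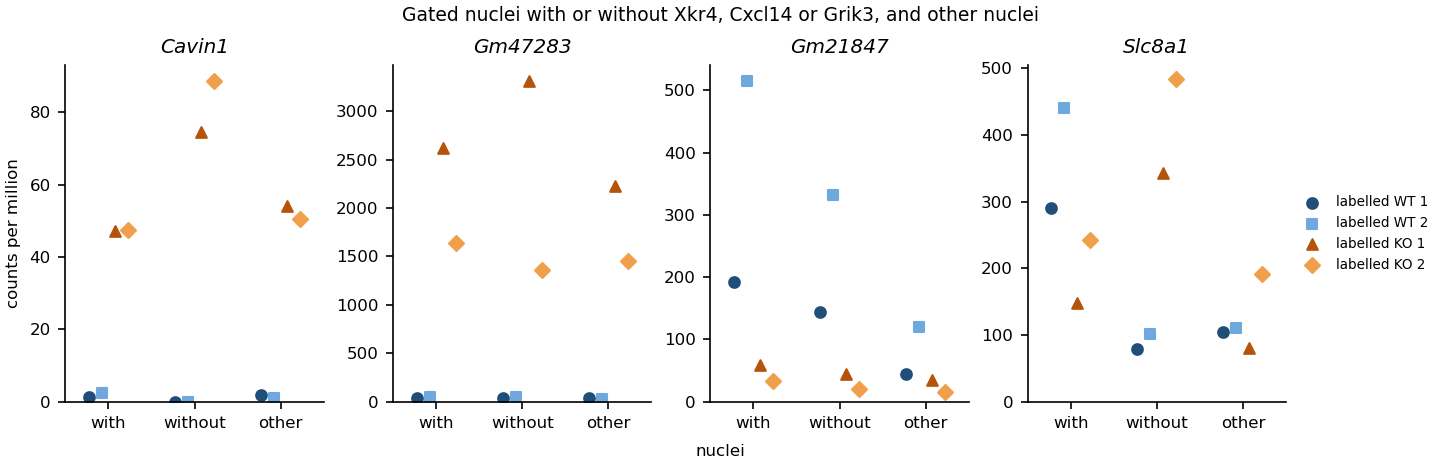
CPM of Cavin1, Gm47283, Gm21847 and Slc8a1 in the summed gated nuclei with and without Xkr4, Cxcl14 or Grik3 and in the other nuclei, each library a symbol, with axes that start at 0. The first 3 genes separate the labels in the same direction in each kind, while Slc8a1 is lower in the labelled knockout libraries with the 3 genes (148 and 242 CPM against 291 and 441) and higher without them (343 and 484 against 78.6 and 102).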

How the data were processed

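Per the labels' protocols, nuclei were isolated and barcoded with Singleron GEXSCOPE reagents and libraries were sequenced on an Illumina NovaSeq. The authors deposited raw, unnormalised UMI counts for each gene in each barcode. GRCm38 (mm10) and Seurat 4.3.0 are named in the submitters' processing notes, while the aligner was not given in the sources used here. Each deposited barcode has at least 500 UMIs. There were 53715 genes and 118 repeated symbols, and Mrtfa, Mrtfb and Areg were not found among the symbols.

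Kept nuclei had 500 or more UMIs, 300 or more genes and at most 10% mitochondrial UMIs. Clusters came from scanpy 1.11.5 (2000 variable genes, 30 components, 15 neighbours, Leiden resolution 1). Scrublet marked 3, 0, 0 and 0 nuclei and has not worked, so no doublet was removed. Counts of gated nuclei were summed per library, as nuclei are not replicates, and CPM are counts per 1000000 UMIs of such a sum. Sums were tested with edgeR 4.0.16 (filterByExpr, TMM, robust glmQLFit, glmQLFTest, two-sided, Benjamini-Hochberg over all genes tested, threshold 0.05), and normalised CPM include the TMM factors. DESeq2 1.42.0 was an alternative, run with R 4.3.3, and a gene is called when its adjusted p is under 0.05. The label effect in the 2 kinds of nuclei was compared as an interaction with the library as a block. Shares were compared with exact permutation tests. Thinning drew 500 UMIs from each nucleus, and no kept nucleus was shallower.

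Other alternatives were no filter on low counts, nuclei of at least 1000 UMIs and 500 genes, at least 4 markers, each library left out in turn, the main cluster alone, removal of the highest 5% of doublet scores, and a replicate block. Added after seeing the data were a gate on thinned counts, the whole cluster and a crossed block. Same-numbered libraries did not deviate together (correlation -0.23 over the 11953 genes tested in all gated nuclei), so the numbers were not taken as pairs.

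On simulated counts for all gated nuclei (11953 genes), the test recovered 0 of 44 genes changed 2-fold, 19 of 49 changed 4-fold, 39 of 44 changed 8-fold and 39 of 42 changed 16-fold. For nuclei without Xkr4, Cxcl14 and Grik3 (1660 genes) it recovered 1 of 40, 11 of 38, 34 of 43 and 41 of 44.

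The nuclei, marker lists and gene lists were chosen with earlier results of these data known. Leading genes were the 20 outside the rule with the highest mean log2 ratio of gated to other nuclei, among genes with at least 50 UMIs in gated nuclei and higher in each library. Between labels, up to 10 called genes in each direction and Cavin1 were named, and the 5 of smallest p where fewer than 5 were called. Other genes are members of the lists, and of these the examples with full values were picked after their values were seen. Some members of the lists are counted but not reported here by name.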

Additional observations from a re-analysis of the deposited data

Results flagged for a closer look

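Slc8a1 was singled out because its label effect differed between the 2 kinds of gated nuclei by a test of the difference itself. The difference, with minus without Xkr4, Cxcl14 or Grik3, was -3.20 on the log2 scale (SE 0.59, edgeR adjusted p = 5.08e-04, n = 2 libraries per label). Over its 8 alternatives the value ran from -3.56 to -3.04. It was past the threshold in 4 of them and not in the other 4, which were DESeq2, at least 4 markers, the fit without WT2 and the fit without KO2.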

How the results depend on the processing

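The number of genes called in all gated nuclei was 1 and became 6 with DESeq2, 18 with no filter on low counts and 6 in the main cluster alone. It was 4 to 26 with each library left out. With the replicate block it was 0 (Gm47283 lost its call at 5.56 on the log2 scale), and with the crossed block, chosen after seeing the data, 3. In nuclei with Xkr4, Cxcl14 or Grik3 the number was 1, against 6 with DESeq2, 15 with no filter and 2 to 40 with each library left out. In nuclei without them it was 1, against 6 with no filter, 0 with the replicate block and 9 to 27 with each library left out. The number of genes whose label effect differed between the kinds was 1, against 0 with DESeq2, 0 with at least 4 markers, 4 with nuclei of at least 1000 UMIs and 500 genes, and 1 to 2 with each library left out. The difference of Cavin1 was 5.01 on the log2 scale and not called. It was called with DESeq2 (5.09), with no filter (5.01) and in the main cluster (4.62), gave 4.43 to 5.26 with each library left out (called without WT2, at 5.26), and was 4.98 and not called with the replicate block. Both shares kept their sign under each alternative, but not whether the labels overlapped. Of 217 alternatives for 23 results on single named genes, 168 kept direction and side of the threshold, 6 lost and 41 gained a call, and 2 reversed: Cited1 without KO2 (3.15, with -7.33 to -5.30 without another library) and AC140209.1 with at least 4 markers (-1.17). The cause was not tested. Counts for all gated nuclei were also simulated with a common dispersion for all genes. There 0 of 44 genes changed 2-fold, 19 of 49 changed 4-fold and 39 of 44 changed 8-fold were recovered. The nuclei without the 3 genes hold 39225 to 146686 UMIs per library.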
